A study of Mus musculus with 8 samples.

Results

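H3K4me3, the trimethylated form of lysine 4 of histone H3, was profiled by CUT&Tag in mouse lung tumor cells that were sorted as CD45-CD31-EpCAM+, and the peaks that lie in exons or in untranslated regions (UTRs) of genes are described here. The members were all listed peaks that the deposited annotation calls Exon, 5' UTR or 3' UTR, which gave 2181 of 35486 listed peaks (6.15%). They comprised 1452 exon peaks, 215 5' UTR peaks and 514 3' UTR peaks. The class came from the position of a peak and not from its signal.

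The control group was KL (which carries *Lkb1* fl/fl; replicates 1 and 2) and the other group was KLG4m/m (the alleles of KL plus *Gpx4*m/m; replicates 3 and 4), with 2 libraries per group. Mice of both groups received intranasal Ad-Cre, which deletes the tumor suppressor gene *Lkb1*, and tamoxifen from 5 weeks after infection, and tumors were taken at 10 weeks. The mice were 8 to 10 weeks old when they were infected. The *Gpx4*m/m allele flanks *Gpx4* with rox sites and carries DreERT2, a Dre recombinase fused to a mutated ligand-binding domain of the estrogen receptor, behind a CAG promoter and a STOP cassette that Cre removes. Therefore, KLG4m/m cells differ from KL cells by the cassette as well as by the loss of GPX4, the enzyme that reduces lipid peroxides, and cells in which Cre or Dre did not act may remain in either group. The legend of the study's CUT&Tag data gives 2 mice per group, whereas the extraction protocol in the labels speaks of 3 mice in total, and the p-values measure the spread between these 4 libraries.

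H3K4me3 is deposited mainly at active promoters by SET1 and MLL complexes and forms narrow peaks at transcription start sites. Peaks of the mark inside a gene body can lie at start sites that the annotation does not list, at enhancers, or at the starts of overlapping and antisense transcripts. In the deposited table every peak has a width of 400 bp and is assigned to the gene with the nearest start site, and the annotation names an exon, and its transcript, where the peak overlaps one. For UTR peaks no gene of the UTR was read from the annotation. A UTR peak is therefore named here by its assigned gene, which may not be the gene that the UTR belongs to. The table holds no strand for the mark, so a peak in an exon cannot be attributed to the sense or the antisense transcript.

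The libraries held 3244495 to 3463731 reads in the listed peaks, and 1 read was worth 0.289 to 0.308 CPM (reads per 1000000 reads in the listed peaks). Over the exon and UTR peaks, the counts of a pair of libraries differed slightly more than sampling noise within a group (chi-square per degree of freedom 1.09 for KL and 1.13 for KLG4m/m) and clearly more between the groups (up to 2.32). *Gpx4* had 1 listed peak, at its promoter (242 and 236 reads in the KL libraries, 304 and 301 in the KLG4m/m libraries), and none at the deleted exons, so that it does not check the deletion. Promoter peaks were listed for all 6 epithelial markers (*Epcam*, *Cdh1*, *Krt8*, *Krt18*, *Krt19* and *Cldn4*) and for 7 of 9 alveolar type 2 markers, not for *Sftpc* and *Slc34a2*. Their summed promoter signal was 247 to 255 CPM in KL and 206 to 210 CPM in KLG4m/m for the epithelial list, and 263 to 270 CPM against 199 to 208 CPM for the alveolar type 2 list. At an adjusted p under 0.05 in edgeR, 1 of 10 promoter peaks fell in the epithelial list and 4 of 11 in the alveolar type 2 list. Over all promoter peaks, 7.68% fell and 3.11% rose. For the lymphocyte list, 9 of 10 genes had a promoter peak, and the sum was 203 to 209 CPM in KL and 267 to 271 CPM in KLG4m/m, with 3 of 15 peaks higher. The sums of the macrophage, endothelial and fibroblast lists were 188 to 191, 121 to 145 and 64.7 to 71.9 CPM in KL and 212 to 220, 125 to 132 and 69.2 to 72.7 CPM in KLG4m/m. Of 9 macrophage promoter peaks 1 rose and 1 fell, of 9 endothelial peaks 0 changed, and of 4 fibroblast peaks 1 rose (edgeR, adjusted p under 0.05). The part of these differences in the results on exon and UTR peaks was not tested, and a change in the share of a cell type and a change per cell cannot be told apart in bulk libraries.

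Exon and UTR peaks were weak and far from start sites. The median over the 2181 peaks was 7.55 CPM (7.33 CPM in exons, 8.67 CPM in 5' UTRs and 7.82 CPM in 3' UTRs), near the 6.68 CPM of intron and distal intergenic peaks and below the 34.2 CPM of promoter peaks. At least 10 CPM were reached by 797 of them (36.5%), compared with 78.9% of promoter peaks. All lay more than 3 kb from the nearest start site, because the annotation gives closer peaks to the promoter class, and the median distance was 9.47 kb. The nearest other listed peak was a median of 8.80 kb away (9.29 kb over all listed peaks), and 55 (2.52%) had another listed peak within 1 kb (3.23% of all listed peaks). Thus the exon and UTR peaks stood about as far from other peaks as listed peaks in general. Whether they are edges of promoter peaks cannot be read from this, because the 3 kb limit of the promoter class keeps such edges out of the members.

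The table assigned the peaks to 1992 genes, of which 1833 had a single exon or UTR peak. A promoter peak was also listed for the assigned gene of 77.2% of the 5' UTR peaks, 61.7% of the 3' UTR peaks and 53.1% of the exon peaks. For the exon peaks, the gene whose exon was hit was the assigned gene in 797 of 1452 cases (54.9%), and in the other 655 the nearest start site belonged to another gene. For UTR peaks this comparison could not be made. Of them, 25.6% in 5' UTRs and 37.7% in 3' UTRs lay upstream of the nearest start site. Most exon peaks (973, or 67.0%) were in an inner exon, 378 (26.0%) in the last exon, 65 in the first of several and 36 in the only exon of a transcript. Non-coding transcripts (NR or XR accessions) supplied the exon for 539 of them (37.1%).

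Together, the 2181 peaks took a small and stable share of the reads. The share was 2.69% and 2.68% in KL and 2.72% and 2.71% in KLG4m/m. Exon peaks held 1.75% and 1.75% of the reads in KL and 1.76% and 1.75% in KLG4m/m. Peaks in 5' UTRs held 0.293% and 0.299% in KL and 0.310% and 0.309% in KLG4m/m, and 3' UTR peaks 0.646% and 0.637% against 0.652% and 0.648%. Both KLG4m/m libraries were above both KL libraries in the UTR classes, by 0.0138 percentage points on average for 5' UTRs and 0.00863 for 3' UTRs (0.00438 without KL replicate 2), whereas KLG4m/m replicate 4 was level with KL in exons. This order was not particular to UTRs. Intron and distal intergenic peaks held 13.96% and 13.93% in KL and 14.52% and 14.43% in KLG4m/m. Promoter peaks went the other way, with 83.33% and 83.36% against 82.74% and 82.84%. An exact two-sided permutation test gave p = 0.333 for each class, which is the smallest p that 2 against 2 libraries allow.

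At the level of single peaks, 85 exon and UTR peaks were higher and 93 were lower in KLG4m/m than in KL tumor cells (edgeR quasi-likelihood test, adjusted p under 0.05 over all listed peaks). These 178 peaks are 8.16% of the members, against 8.62% of all listed peaks, so exon and UTR peaks were called about as often as peaks in general. Higher peaks were 3.90% of the members, against 3.1% of all peaks, and lower peaks 4.26%, against 5.52%. Among exon peaks 52 rose and 73 fell, among 5' UTR peaks 14 rose and 8 fell, and among 3' UTR peaks 19 rose and 12 fell. For comparison, 3.11% of promoter peaks rose and 7.68% fell, and 2.94% of intron and distal intergenic peaks rose and 2.49% fell; the differences between the classes were not tested. The median log2 fold change (KLG4m/m over KL) was -0.0016 in exons, 0.057 in 5' UTRs and -0.016 in 3' UTRs, compared with 0.0077 over all peaks. The medians were thus close to that of all peaks. In all 178 called peaks the libraries of the groups did not overlap, a property that 53.2% of the members and 54.2% of all peaks had.

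These counts depend on the libraries and on the tool. Without KLG4m/m replicate 3 or replicate 4, edgeR called 0 of the 2181 peaks and 0 of all listed peaks (306 and 329 of the members had an unadjusted p under 0.05), and limma on log2(CPM + 1) also called 0, whereas without KL replicate 1 or replicate 2 edgeR called 116 and 85. With all libraries, DESeq2 called 5 members (0.229%), against 0.781% of all listed peaks. Those 5 were the exon peaks of *Grin2d*, *Gm5977*, *Kif7* (in the last exon of *Plin1*) and *LOC118568478* and the 3' UTR peak of *Dda1*. No call changed its direction under any setting.

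**Figure D1:**
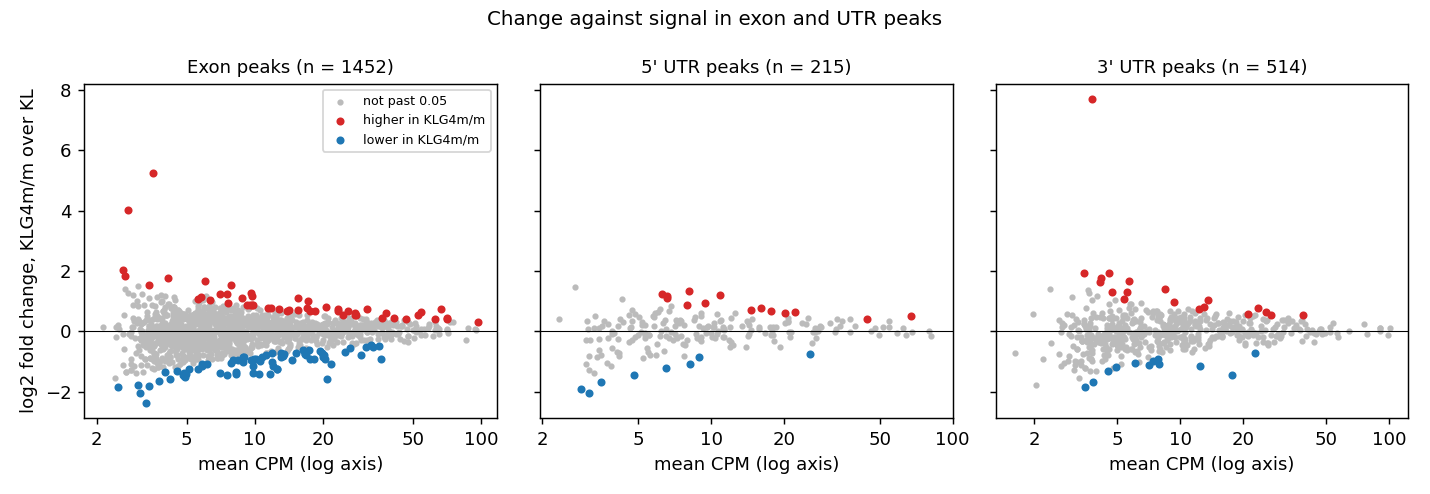
Log2 fold change of H3K4me3 (KLG4m/m over KL, vertical) against the mean signal in CPM (horizontal, log axis) for each exon, 5' UTR and 3' UTR peak; red and blue points passed an adjusted p of 0.05 in edgeR. The clouds are centred on 0 in each class, and 3 weak peaks stand apart with log2 fold changes of 4.02 to 7.71.

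The largest differences lay in the gene for estrogen receptor alpha, *Esr1*, on chromosome 10, where 3 members had almost no reads in KL and a clear signal in both KLG4m/m libraries. The first (chr10:4806847-4807247) is in exon 6 of 8 of an *Esr1* transcript and held 1 and 0 reads in KL and 21 and 25 reads in KLG4m/m. The second (chr10:4889064-4889464) is in exon 7 of 10 of another *Esr1* transcript, although the table assigns it to *Syne1*, the neighbouring gene for the nuclear envelope protein nesprin-1, and it held 1 and 1 reads in KL and 21 and 14 in KLG4m/m. The third (chr10:4951029-4951429) is called 3' UTR and is also assigned to *Syne1* but lies within the listed bounds of *Esr1* (chr10:4561989-4955633); it held 0 and 0 reads in KL and 31 and 20 in KLG4m/m. The groups did not overlap at any of them, and both KL libraries were at or below 1 read. With so few KL reads, these peaks can have entered the peak list only through the KLG4m/m libraries. The ratios and p-values given for them below therefore describe peaks that were listed because they were high in that group.

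The ratio of KLG4m/m to KL reads was 47.9 at the exon 6 peak (95% exact interval 8.17 to 1931) and 18.2 at the exon 7 peak (4.68 to 156), with intervals that cover counting error only. At the 3' UTR peak, with 3 reads allowed per KL library, KLG4m/m was at least 8.79-fold higher. The adjusted p of edgeR was 4.88e-05, 0.000502 and 1.05e-05 for the 3 peaks, and the fitted log2 fold changes of 5.26, 4.02 and 7.71 depend on the prior count. DESeq2 left all 3 without an adjusted p (unadjusted p 0.00038, 0.000738 and 4.82e-06). None of them passed without KLG4m/m replicate 3 or replicate 4, where no peak did, yet the reads of each KLG4m/m library alone were far above those of both KL libraries.

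The start of *Esr1* did not show this pattern. Its stronger promoter peak held 89 and 87 reads in KL and 108 and 109 in KLG4m/m (log2 fold change 0.36, edgeR adjusted p = 0.134), and its other promoter peak 22 and 23 against 21 and 14 (-0.30, adjusted p = 0.603). Of the intron peaks, 1 held 23 and 29 reads against 22 and 25, and the other rose from 41 and 61 to 92 and 101 reads (0.98, adjusted p = 0.0017). Each of the 3 members differed from the other peaks of its assigned gene (within-gene test, adjusted p of 1.72e-05, 0.0028 and 6.87e-07). The 3 peaks lie 245 to 389 kb downstream of the first *Esr1* start, in the 3' part of the gene, which encodes the ligand-binding domain of the receptor. DreERT2 of the *Gpx4*m/m allele carries such a domain, and reads of the native *Esr1* gene and of the cassette cannot be told apart in a table of mapped counts, since the cassette is present in KLG4m/m mice and absent from KL mice. In the whole table, 14 peaks had 3 reads or fewer summed over a group and 20 or more over the other, limits that were chosen after the values were seen, and the members among them were exactly these 3.

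**Figure D2:**
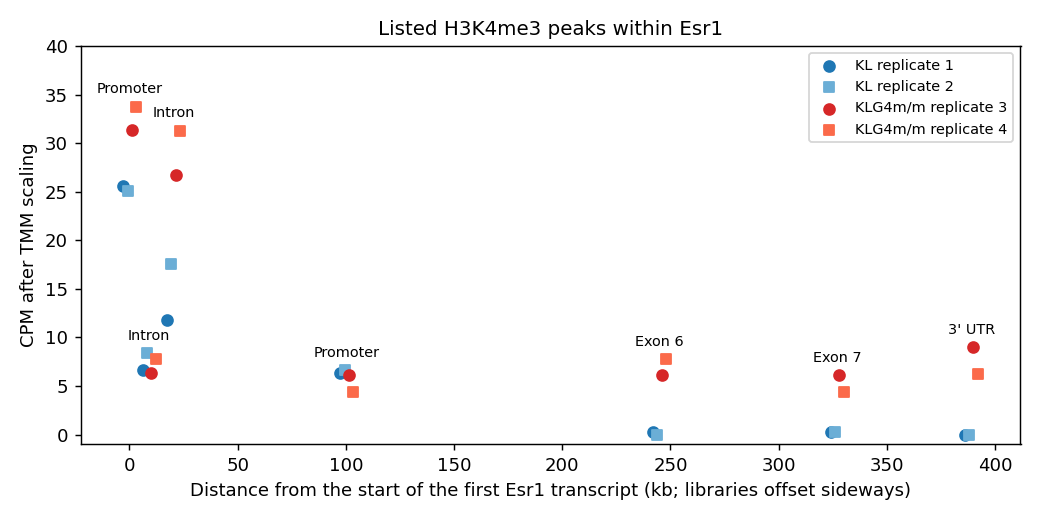
Signal of the 7 listed peaks within *Esr1* in each library (CPM after TMM scaling, vertical) against the distance from the start of the first *Esr1* transcript in kb (horizontal). The 3 peaks at 245 to 389 kb are at 0 to 0.29 CPM in both KL libraries and at 4.3 to 9.0 CPM in both KLG4m/m libraries, while the promoter peaks of the groups lie closer together.

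Further along, in *Syne1* itself, the members moved in different directions. The peak in exon 80 of 133 held 33 and 33 reads in KL and 59 and 48 in KLG4m/m (log2 fold change 0.75 ± 0.22 (SE), edgeR adjusted p = 0.0325). The peak in exon 42, assigned to *Gm51757*, held 45 and 35 against 23 and 19 reads (-0.87 ± 0.27, adjusted p = 0.0434). That in exon 86 held 16 and 16 against 20 and 6 reads, so the KLG4m/m libraries lay on both sides of KL.

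Among the exon peaks that fell, the largest difference by the rule for named peaks was in exon 2 of 13 of *Grin2d* (chr7:45515469-45515869), which encodes a subunit of the NMDA glutamate receptor. It held 102 and 115 reads in KL and 39 and 31 in KLG4m/m, or 31.2 ± 2.7 against 10.4 ± 1.2 CPM (mean ± SD, n = 2 libraries per group). The log2 fold change was -1.57 ± 0.19 (SE), with an adjusted p of 5.75e-06 in edgeR and 0.000229 in DESeq2, and no promoter peak of *Grin2d* was listed. A similar size was seen in the last exon of *Prdm13*, a transcription factor gene of the developing nervous system, with 27 and 50 against 18 and 9 reads (-1.45 ± 0.35, adjusted p = 0.00887). The strongest promoter peak of *Prdm13* fell as well (-0.96, edgeR adjusted p = 0.00503), and the exon peak did not pass the within-gene test (adjusted p = 0.853). In *Mcoln2*, which encodes a lysosomal cation channel, the exon 8 peak fell from 36 and 48 to 16 and 14 reads (-1.42 ± 0.29, adjusted p = 0.0028). The remaining exon peaks of this kind were hit through another gene than the assigned one. The last exon of *Fam171a2*, assigned to *Grn*, the progranulin gene, held 45 and 73 against 21 and 21 reads (-1.43 ± 0.27, adjusted p = 0.00115). Exon 26 of *Plcb2*, a phospholipase C gene, assigned to *Ankrd63*, held 56 and 50 against 21 and 17 (-1.42 ± 0.25, adjusted p = 0.000786). In each of these 5 peaks every KL library was above every KLG4m/m library, which the rule for named peaks required.

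Of the 5 exon peaks that rose most by the same rule, 4 lay in an exon of another gene than the one with the nearest start site. The last exon of *Wbp1l* (assigned to *Gm36602*) went from 11 and 17 reads in KL to 36 and 42 in KLG4m/m (log2 fold change 1.53 ± 0.30 (SE), adjusted p = 0.00217). The last exon of *Gpatch2* (assigned to *Gm51737*) went from 24 and 15 to 44 and 47 reads (1.27 ± 0.27, adjusted p = 0.00394). Exon 37 of 52 of *Dock5*, an activator of the small GTPase RAC, assigned to *Gnrh1*, held 19 and 12 against 36 and 35 reads (1.25 ± 0.30, adjusted p = 0.00955). *Ahi1*, a gene of the primary cilium, had a peak in exon 19 (assigned to *Gm20149*) with 21 and 21 against 48 and 42 reads (1.15 ± 0.26, adjusted p = 0.00545). The peak in exon 7 of *Pirb*, an inhibitory receptor of myeloid and B cells, held 35 and 34 against 75 and 67 reads (1.10 ± 0.20, adjusted p = 0.00106), and the promoter peak of *Pirb* was also higher (0.58, adjusted p = 0.0211), while the summed promoter signal of the lymphocyte and macrophage lists given above was higher as well, whose part in this was not tested. That the groups did not overlap at these peaks was again a condition of the rule.

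**Figure D3:**
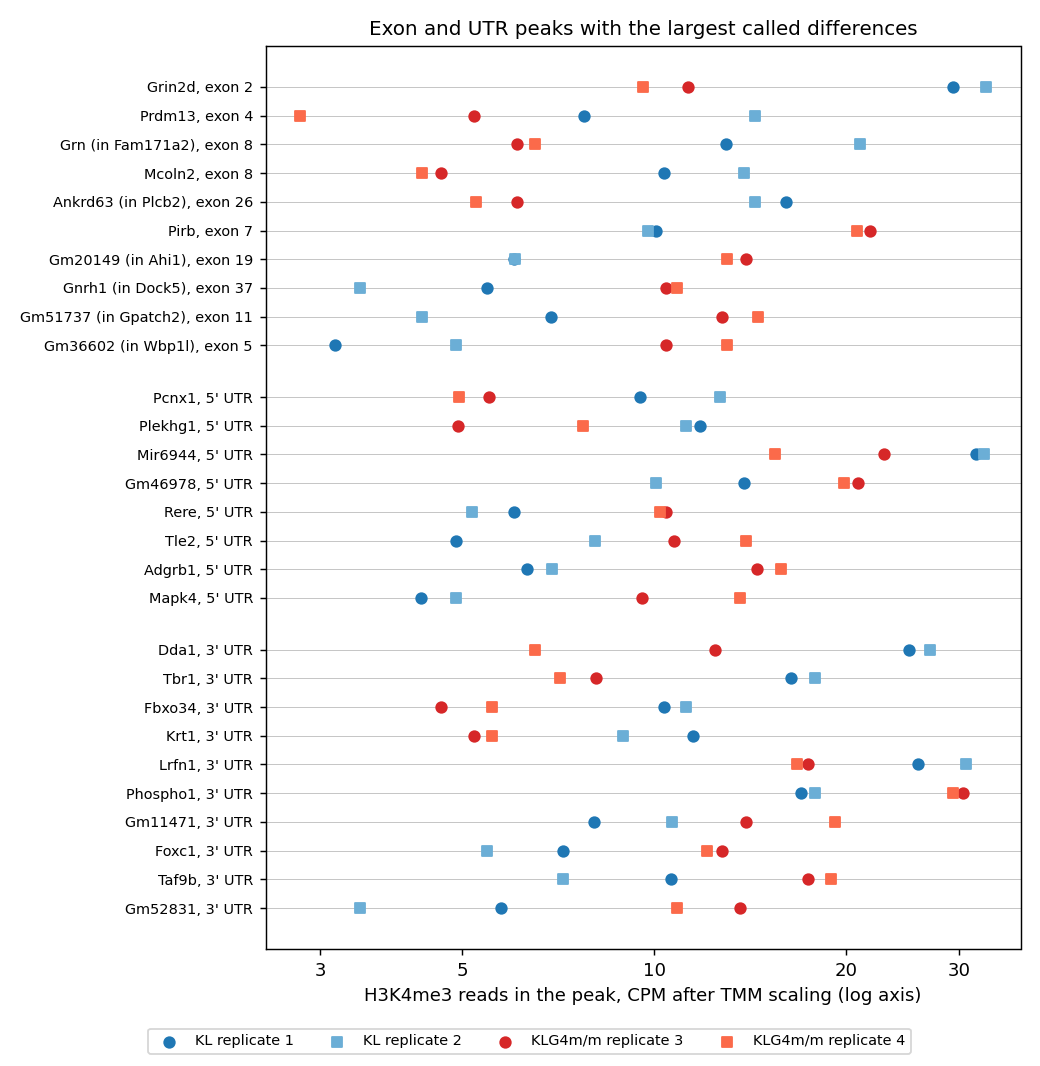
Signal in each library (CPM after TMM scaling, log axis) of the exon, 5' UTR and 3' UTR peaks with the largest called increases and decreases, named by the assigned gene and, in brackets, by the gene of the exon where it differs. UTR peaks carry the assigned gene only, which may not be the gene that the UTR belongs to. Blue points are KL and red points KLG4m/m. In every line the groups do not overlap, which was a condition for being shown. The pairs within a group lie closer together at *Pirb* or *Phospho1* than at *Prdm13* or *Dda1*.

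In 5' UTRs, 11 increases and 3 decreases met the rule for named peaks (called, no overlap, and at least 10 CPM in the higher group), compared with 40 and 54 in exons and 10 and 5 in 3' UTRs. Without the 10 CPM limit, 14 of the 215 peaks in 5' UTRs rose and 8 fell in edgeR (6.51% and 3.72%, against 3.1% and 5.52% of all listed peaks), and DESeq2 called 0 in either direction. *Mapk4*, an atypical MAP kinase gene, held 15 and 17 reads in KL and 33 and 44 in KLG4m/m (log2 fold change 1.32 ± 0.30 (SE), adjusted p = 0.00586), and *Adgrb1*, which encodes an adhesion G protein-coupled receptor, 22 and 24 against 50 and 51 (1.19 ± 0.24, adjusted p = 0.00279). The corepressor genes *Tle2* and *Rere* followed with 17 and 28 against 37 and 45 reads (0.92, adjusted p = 0.0371) and 21 and 18 against 36 and 33 reads (0.88, adjusted p = 0.0485). The fifth was *Gm46978*, with 48 and 35 against 72 and 64 reads (0.77, adjusted p = 0.0184). The decreases were at *Pcnx1* (33 and 44 against 19 and 16 reads, -1.08, adjusted p = 0.0186), at *Plekhg1* (41 and 39 against 17 and 25, -0.87, adjusted p = 0.0471), and at the peak assigned to the microRNA gene *Mir6944* (111 and 114 against 79 and 50, -0.75, adjusted p = 0.00718). The promoter peak of *Mapk4*, *Adgrb1*, *Pcnx1* and *Plekhg1* had a log2 fold change of -0.15, 0.14, -0.11 and 0.21. Set against the other peaks of the gene in the test described below, none of these 4 peaks passed in edgeR (adjusted p 0.0805 to 0.698), whereas that of *Tle2* did (0.0395).

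In 3' UTRs, the largest decrease by the same rule, with its minimum of 10 CPM, was at *Dda1*, which encodes a subunit of a CRL4 ubiquitin ligase (chr8:71928704-71929104). It held 87 and 94 reads in KL and 43 and 21 in KLG4m/m, or 26.1 ± 1.4 against 9.5 ± 4.2 CPM (mean ± SD, n = 2 libraries per group), a log2 fold change of -1.44 ± 0.22 (SE) with an adjusted p of 0.000139 in edgeR and 0.00809 in DESeq2. The KLG4m/m libraries differed from each other by about as much as the lower of them held, but both were below KL, and the promoter peak of *Dda1* had a log2 fold change of 0.02 (within-gene test of the 3' UTR peak, adjusted p = 0.00372). Next by this rule were *Tbr1*, a T-box factor gene of the cerebral cortex (57 and 62 against 28 and 23 reads, -1.16, adjusted p = 0.00199), *Fbxo34* (36 and 39 against 16 and 18, -1.08, adjusted p = 0.0173), the keratin gene *Krt1* (40 and 31 against 18 and 18, -0.92, adjusted p = 0.045) and *Lrfn1*, a synaptic adhesion gene (90 and 107 against 60 and 54, -0.73, adjusted p = 0.00827). The strongest promoter peak of *Fbxo34* fell as well (-0.50, edgeR adjusted p = 0.0138), while those of *Tbr1* and *Lrfn1* had values of -0.04 and -0.21 (adjusted p 0.953 and 0.637). An increase was found at the peak assigned to *Gm52831*, 19.5 kb upstream of its nearest start (20 and 12 against 47 and 35 reads, 1.41, adjusted p = 0.00345). Other increases were at *Taf9b*, which encodes a TFIID subunit (37 and 25 against 60 and 61, 1.02, adjusted p = 0.00534), and the forkhead gene *Foxc1* (25 and 19 against 44 and 39, 0.97, adjusted p = 0.0204). *Gm11471* (28 and 37 against 48 and 62, 0.81, adjusted p = 0.0291) and *Phospho1*, a phosphatase gene of bone mineralization (59 and 62 against 105 and 95, 0.78, adjusted p = 0.00367), followed. These peaks were at different positions of unrelated genes, and no chromosome held more than 16 of the 178 called members.

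Of the 3 strongest members of each class, 1 passed the threshold. In exons, the peak in exon 9 of *Ssc4d*, a scavenger receptor gene, held 312 and 295 reads in KL and 365 and 348 in KLG4m/m (log2 fold change 0.29 ± 0.09 (SE), edgeR adjusted p = 0.0366), the smallest difference that was called among the members. The peak assigned to *Nfia*, in an exon of *Gm38709*, held 326 and 326 against 323 and 320 reads, and that in *Gm20590* 338 and 297 against 346 and 295. The strongest 5' UTR peaks were those assigned to the MHC class II chaperone gene *H2-DMb2* (293 and 298 against 243 and 271 reads), to the agouti gene *a* (252 and 300 against 261 and 277) and to *Wdr4* (260 and 216 against 246 and 206). The *H2-DMb2* peak lay 7.38 kb upstream of the nearest start of that gene. The strongest 3' UTR peaks were those assigned to *Ctdsp1* (338 and 335 against 379 and 319 reads), *Smim33* (368 and 346 against 331 and 299) and the tRNA gene *n-TLtag1* (311 and 295 against 345 and 288). The *Ctdsp1* peak lay 4.3 kb upstream of its nearest start. The *n-TLtag1* peak lay 4.35 kb from the start of the tRNA gene, which is only the nearest start and not the named owner of the UTR. The adjusted p of these 8 peaks was 0.388 to 0.942, with log2 fold changes of -0.14 to 0.12 and SEs of 0.087 to 0.108.

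The share of called peaks changed with the signal and did so differently in exons and in UTRs. Of the 276 exon peaks with 10 to 20 CPM, 9.78% were lower in KLG4m/m, close to the 9.55% of promoter peaks and above the 2.26% of intron and distal intergenic peaks at this level. At 20 to 50 CPM the share was 6.03% in exons and 12.3% at promoters. DESeq2 called 0 of the exon decreases at 10 to 20 CPM (43 had an unadjusted p under 0.05 in edgeR) and 47 at promoters. Of the 154 UTR peaks in this range 1.30% were lower, so UTR peaks had a share like that of intron and distal intergenic peaks. Above 50 CPM, 7 of 36 exon peaks were higher and 0 lower in edgeR (0 also in DESeq2, and 1 at an unadjusted p under 0.05), and 1 of 23 UTR peaks was higher. Of these 7 exon peaks, 6 lie on an unplaced scaffold that is described below, and the other is in *Ssc4d*. By exon position, 6.88% of the peaks in last exons fell and 2.12% rose, compared with 4.42% and 3.90% in inner exons. The shares in coding transcripts (3.64% higher and 5.69% lower) and in non-coding transcripts (3.15% and 4.08%) had the same order. None of the differences between these groups of peaks was tested.

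**Figure D4:**
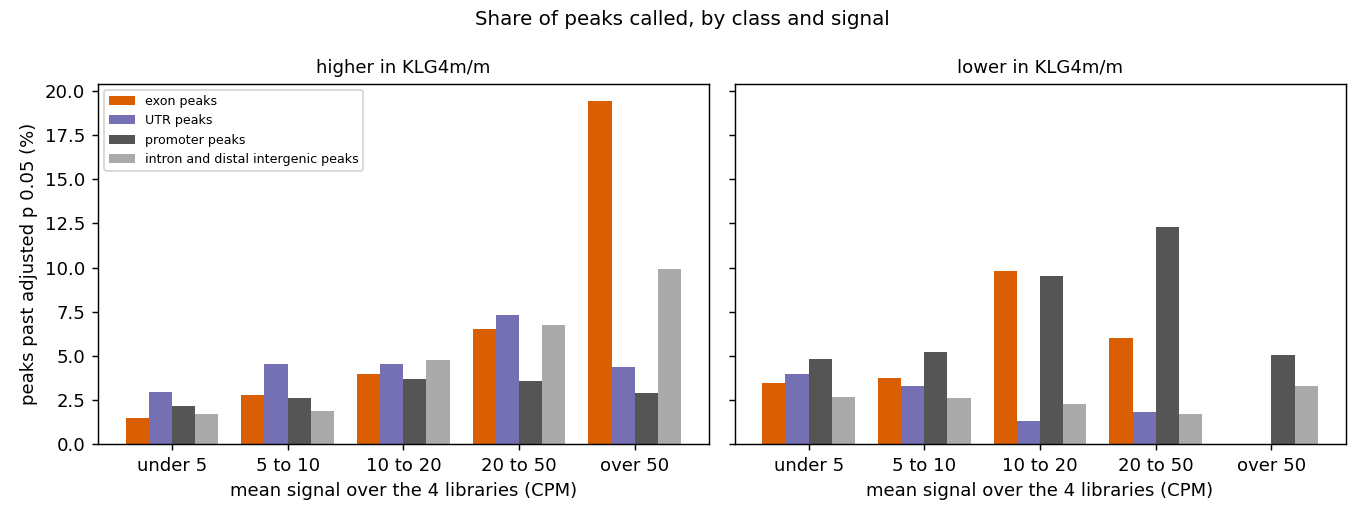
Percentage of peaks that passed an adjusted p of 0.05 in edgeR, higher (left) or lower (right) in KLG4m/m, for exon peaks, UTR peaks, promoter peaks, and intron and distal intergenic peaks by mean signal in CPM over the 4 libraries. Exon peaks resemble promoter peaks in the share of decreases at 10 to 20 CPM (9.78% and 9.55%), where UTR peaks are at 1.30%, but not at 20 to 50 CPM (6.03% and 12.3%); the exon bar above 50 CPM rests on 36 peaks.

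A peak inside a gene was then set against the other listed peaks of its assigned gene, which can be done for 1649 members. Of these, 18 rose and 16 fell relative to the gene's peaks (edgeR, adjusted p under 0.05 over all peaks tested), which is 2.06% against 1.29% of all peaks tested. Differences below are log2 values relative to the summed reads of the gene. Apart from the 3 peaks of the *Esr1* region, the largest relative increases were in exon 6 of *Usf3*, a transcription factor gene (1 and 6 reads in KL, 13 and 15 in KLG4m/m; difference 2.11, adjusted p = 0.0302), and in the 5' UTR of *Dcun1d1*, a gene of cullin neddylation (17 and 11 against 33 and 28; 1.41, adjusted p = 0.0107), whose promoter peak had a log2 fold change of -0.60. The largest relative decreases were in exon 12 of *Cep78*, a centrosomal protein gene (21 and 18 against 7 and 0 reads, -1.95, adjusted p = 0.0399), and in exon 5 of *Fam184b*. The latter is assigned to *9630001P10Rik* and was set against that gene's peaks (17 and 18 against 5 and 3, -1.94, adjusted p = 0.0311). Next were a 5' UTR peak assigned to *Dennd2a* (18 and 14 against 5 and 3, -1.91, adjusted p = 0.0354) and a 3' UTR peak assigned to the lipid phosphatase gene *Plpp5* (20 and 21 against 7 and 5, -1.66, adjusted p = 0.0319). The *Plpp5* peak lay 5.24 kb upstream of the nearest start of that gene. The fifth was in exon 12 of the kinase gene *Camkk2* (18 and 22 against 8 and 4, -1.57, adjusted p = 0.043). These peaks had few reads, and the libraries of the groups did not overlap at any of them.

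Stronger peaks also departed from their genes. The 5' UTR peak of *Tnrc18* held 176 and 212 reads in KL and 264 and 264 in KLG4m/m (relative difference 0.42, adjusted p = 0.0237), while the gene's strongest promoter peak had a log2 fold change of -0.07. In exon 10 of *Setd4*, a SET-domain methyltransferase gene, 90 and 73 reads stood against 138 and 123 (0.56, adjusted p = 0.0402; promoter -0.01). The last exon of *Kcnk12*, a potassium channel gene, moved against its promoter, with 89 and 97 against 54 and 41 reads (-0.84, adjusted p = 0.00794; promoter 0.57). In the last exon of *Rtn4rl2*, a Nogo receptor homologue, the reads fell from 56 and 67 to 25 and 24 (-1.12, adjusted p = 0.00372; promoter 0.16). Thus, in both directions, a called exon or UTR peak could differ from the start of its assigned gene. Without any 1 of the libraries, 2 to 8 increases and 1 to 7 decreases passed this threshold.

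**Figure D5:**
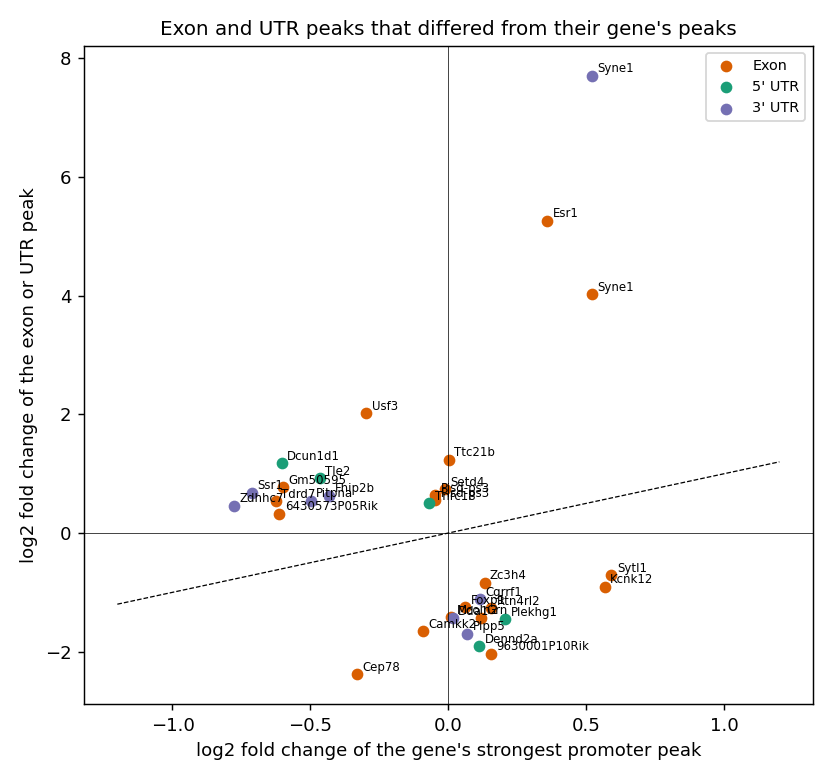
Log2 fold change (KLG4m/m over KL) of the exon and UTR peaks that passed the within-gene test (vertical) against that of the strongest promoter peak of the assigned gene (horizontal), for the 33 of 34 with a listed promoter peak; the dashed line marks equal change. The *Esr1* and *Syne1* points lie far above it, and the points of *Kcnk12* and *Sytl1* lie below it at promoters with positive values.

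The genes with most assigned exon and UTR peaks were *8030431J09Rik*, *Tcf4*, *Syne1*, *Pisd-ps3* and *LOC118568478*. Of the 4 peaks assigned to *Syne1*, described above with the *Esr1* region, 3 were called higher. *8030431J09Rik* had 5 peaks with log2 fold changes of -0.96 to 0.55, and adjusted p-values of 0.058 to 0.716 in edgeR. The 4 peaks of *Tcf4*, an E-protein transcription factor gene with many alternative starts, were all in 5' UTRs, and the strongest held 122 and 107 reads in KL and 112 and 102 in KLG4m/m (-0.04, adjusted p = 0.899). The weakest of them held 18 and 19 against 11 and 5 reads (-1.14, adjusted p = 0.0968), and the other two had values of -0.17 and -0.12. *Pisd-ps3* and *LOC118568478*, with 4 peaks each, lie on the unplaced scaffold JH584304, which held 9 members. All 9 had a log2 fold change above 0 (0.15 to 0.74), and 6 were called higher, against 3.1% of all listed peaks. The strongest change among the 9 was in exon 7 of *LOC100861749*, assigned to *LOC118568478*, where KL held 175 and 172 reads and KLG4m/m 299 and 258 (0.74, adjusted p of 5.28e-05 in edgeR and 0.00451 in DESeq2). The rise was not limited to exon peaks. The strongest promoter peaks of *LOC100861738*, *LOC100861749* and *LOC118568478* had values of 0.45, 0.40 and 0.48 (edgeR adjusted p 0.00487, 0.0148 and 0.0889), and that of *Pisd-ps3* -0.05 (0.635). On the scaffold MU069435, the 3 members had values of -1.01 to -0.14, and the lowest, in exon 2 of *LOC118568479*, fell from 48 and 63 to 29 and 24 reads (adjusted p = 0.0085). Whether reads of similar sequences elsewhere in the genome were placed on these scaffolds was not tested. Without the 12 members on scaffolds 79 members rose and 92 fell.

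Few members fell in genes that the study is about, whose lists are short (31 genes of the TAG synthesis list and 25 of the ferroptosis list had a listed peak). Over all listed peaks 8.62% were called. Of the TAG synthesis list, 5 members were found, and 1 passed, a 5' UTR peak of *Pld3*, a lysosomal member of the phospholipase D family (53 and 59 reads in KL, 75 and 88 in KLG4m/m; log2 fold change 0.60 ± 0.18 (SE), adjusted p = 0.0406). The second peak of *Pld3* was stronger and held 179 and 159 against 187 and 173 reads (0.15, adjusted p = 0.458). The 5' UTR peak of *Lpin2*, a phosphatidate phosphatase gene, held 105 and 83 against 86 and 93 reads. A 3' UTR peak was assigned to *Srebf1*, the sterol-responsive lipid regulator, but lay 7.20 kb upstream of its nearest start. It held 36 and 44 against 35 and 29 reads. Of the ferroptosis list, 4 members were found and 0 passed in edgeR (0 also in DESeq2, and 1 at an unadjusted p under 0.05). The strongest was in exon 8 of *Slc7a11*, the cystine transporter gene, with 72 and 65 against 76 and 54 reads (-0.02, adjusted p = 0.963), and that in exon 8 of *Lpcat3*, assigned to *Emg1*, held 20 and 14 against 18 and 20 reads. The median log2 fold change was 0.15 in the TAG list and 0.10 in the ferroptosis list, against 0.0077 over all peaks. The last exon of *Plin1*, which encodes a lipid droplet coat protein and was not in the lists, held 108 and 96 reads in KL and 48 and 45 in KLG4m/m, was assigned to *Kif7*, and had an adjusted p of 0.000319 in edgeR and 0.0296 in DESeq2.

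The lists of regulatory gene families held more members but are also longer, with 409 zinc finger, 183 developmental and 96 chromatin genes that had a listed peak. Of all listed peaks, 3.1% rose and 5.52% fell, against which the small counts of these lists are to be read. Of 27 members in zinc finger genes, 1 rose and 4 fell, with a median log2 fold change of -0.09. The increase was in the last exon of *Zscan10* (26 and 22 reads in KL, 48 and 36 in KLG4m/m; 0.86, adjusted p = 0.0362). The decreases included a 5' UTR peak assigned to *Zfp697* (14 and 21 against 5 and 3, -2.04, adjusted p = 0.0139). Another was a 3' UTR peak assigned to *Zscan22*, 6.16 kb upstream of its nearest start (25 and 20 against 6 and 11, -1.33, adjusted p = 0.0373). The last exon of *Zfpm1*, a cofactor of GATA factors, assigned to *Gm46056*, fell as well (50 and 42 against 28 and 19, -0.91, adjusted p = 0.026). The fourth, assigned to *Zfp520-ps*, lies in the last exon of *Scarf2*, which is no zinc finger gene (88 and 85 against 60 and 40; -0.73, adjusted p = 0.0148).

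Of 20 members in developmental transcription factor families, 1 rose (*Foxc1*, above) and 1 fell (3.1% and 5.52% over all listed peaks), the peak assigned to the forkhead gene *Foxp1* in the only exon of *Gm19665* (28 and 27 reads in KL, 9 and 13 in KLG4m/m; log2 fold change -1.25, adjusted p = 0.0227). The median of these 20 was -0.0015. In the lung lineage gene *Foxa1*, both 3' UTR peaks were level, with 78 and 83 against 70 and 72 reads and 68 and 83 against 60 and 74. The peak in exon 3 of *Tfap2a*, assigned to *Gm26688*, held 145 and 127 against 131 and 130 reads. Of 13 members in chromatin regulator families, 1 rose (*Setd4*, above) and 0 fell in edgeR (0 also in DESeq2 and at an unadjusted p under 0.05), and the 5' UTR peak of the histone deacetylase gene *Hdac5* held 126 and 132 against 147 and 132 reads. The single member in the immediate early list, assigned to *Fosb* and lying in an exon of *D830036C21Rik*, held 174 and 146 against 186 and 186 reads (0.27, adjusted p = 0.153), and the single member in clustered first-exon genes, in an exon of *Pcdha4b* of the protocadherin alpha cluster and assigned to *Gm29994*, 56 and 43 against 41 and 57.

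Of the cell type marker lists, 4 members were found, and 0 passed in edgeR, compared with 8.62% of all listed peaks (0 also in DESeq2, and 1 at an unadjusted p under 0.05). The 3' UTR peak of the T cell gene *Cd3d* held 82 and 76 reads in KL and 101 and 96 in KLG4m/m (log2 fold change 0.38, adjusted p = 0.134), and exon 8 of the B cell gene *Bank1*, assigned to *Gm5281*, 17 and 31 against 38 and 31 (0.58, adjusted p = 0.211). Exon 3 of the macrophage gene *Mrc1* held 24 and 24 against 32 and 18 reads, and exon 7 of the endothelial gene *Pecam1* 27 and 18 against 28 and 37. After scaling, the groups overlapped at *Mrc1* and not at the other 3 peaks, while 54.2% of all listed peaks had no overlap either. The epithelial, alveolar type 2, fibroblast and model gene lists had no exon or UTR peak.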

How the data were processed

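H3K4me3 CUT&Tag libraries of 2 KL and 2 KLG4m/m tumor cell samples were analysed, and the H3K27ac libraries were not used here. An allele that both groups share is not reported here. By their methods, the authors trimmed the reads (Trim Galore 0.6.10), mapped them (BWA 0.7.15), removed mitochondrial reads, duplicates (Picard 2.17.3) and reads with a mapping quality under 30, called peaks (MACS2 2.2.7.1) and assigned them to genes (HOMER 4.11.1). They deposited 1 table of peaks for the 4 libraries, with whole read counts and, scaled by the authors to the reads in the listed peaks, CPM values, beside their own comparison, which was not used here. The methods describe an assignment by gene body or promoter region, whereas the table gives the gene with the nearest start. Which tool made the annotation labels that define the classes was therefore not established. Signed distances to start sites, here taken as other values, are also as deposited. Scaling to reads in peaks hides a change shared by all peaks. The methods name a GRCm38 annotation, but of 19818 genes compared only 343 have a start or end in the table equal to that of GRCm38, so positions are those of the table, the build is not given in the sources used here, and no sequence under the peaks is printed.

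Counts were tested with edgeR 4.0.16 (quasi-likelihood F test, TMM factors 0.995 to 1.004, no filter, common dispersion 0.00133), with Benjamini-Hochberg adjustment over the 35486 peaks and a threshold of 0.05. The SE is the log2 fold change divided by the root of F. A peak was set against its gene's peaks with diffSpliceDGE over 22232 peaks of genes with several peaks. All tests were two-sided, and the scripts were tested on simulated data. Alternatives used limma 3.58.1, DESeq2 1.42.0, other scalings, a minimum of 10 CPM and the omission of each library (R 4.3.3). A count of 0 was read as up to 3 reads per library.

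Named peaks were, in each class, the 5 largest increases and the 5 largest decreases among called peaks that did not overlap and reached 10 CPM in the higher group; the 3 strongest; called members of the gene lists with up to 3 strong ones; the genes with most members; and the 5 largest within-gene differences each way. *Gm5977*, *Plin1*, the other *Syne1* peaks, the scaffold peaks and the stronger within-gene peaks were added after their values were seen. Members and lists were chosen with earlier results of these data known. The developmental, zinc finger, clustered first-exon and chromatin lists were taken by the start of the symbol, which also admits unrelated genes.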

Additional observations from a re-analysis of the deposited data

How the results depend on the processing

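No paired analysis was possible because the KL libraries are numbered 1 and 2 and the KLG4m/m libraries 3 and 4, so that the groups share no replicate number. With 2 libraries per group, each omission leaves a single library in a group, which is then assumed to vary like the others. Over these omissions the calls ranged from 0 to 55 higher and 0 to 61 lower for all members (85 and 93 with every library), 0 to 34 and 0 to 48 for exon peaks (52 and 73), 0 to 7 and 0 to 4 for 5' UTR peaks (14 and 8), and 0 to 15 and 0 to 9 for 3' UTR peaks (19 and 12). The counts of 0 arose without KLG4m/m replicate 3 or 4, where the prior degrees of freedom of edgeR were 2.63 against 24.5 with all libraries. With limma on log2(CPM + 1), the omissions, a combination added after the data were seen, gave 62, 41, 0 and 0 higher and 45, 32, 0 and 0 lower members (without KL replicate 1 and 2 and KLG4m/m replicate 3 and 4). DESeq2 called 1 higher and 4 lower members (1 and 3 exon peaks, 0 and 0 5' UTR peaks, 0 and 1 3' UTR peaks), and 1093 members kept an adjusted p in it. The minimum of 10 CPM, which tests fewer peaks, gave 52 and 53 (33 and 48, 8 and 1, 11 and 4), and an unadjusted p under 0.05 gave 246 and 270 (150 and 189, 28 and 22, 68 and 59). Total-read scaling, promoter-based TMM, both forms of limma, an added 1.5-fold change, leaving out members with another peak within 1 kb and leaving out scaffolds kept each count within 1.5 times its value, and all members lie over 3 kb from a start site. The within-gene counts (18 higher and 16 lower) ranged from 2 to 8 and from 1 to 7 over the omissions, fell to 7 lower with at least 10 CPM, and were 28 and 25 when the gene was taken from the annotated transcript, a choice added after the data were seen. With at least 10 CPM, the difference in the share of reads was 0.055 percentage points for all members (0.0307 without it) and 0.0265 for exon peaks (0.00827); over the omissions it ranged from 0.0215 to 0.0399 and from 0.00126 to 0.0153, and for 5' UTR and 3' UTR peaks from 0.0107 to 0.0168 and from 0.00438 to 0.0129. No named peak past the threshold changed its sign under any of these settings. Depth limits the weak peaks: the median member had 25 to 27 reads per library. The causes of these changes were not tested unless stated.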
